A study of Arabidopsis thaliana with 6 samples.

Results

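Small RNA (sRNA) was followed at 8 Arabidopsis loci of the NLR immune receptor system. Those described here were AT1G12294 (MIR472, the gene of microRNA miR472), the coiled-coil (CC) type receptor genes AT1G15890, AT5G43740 and AT1G51480, and 3 receptor genes of the RPP5 cluster, AT4G16860 (RPP4), AT4G16890 (SNC1) and AT4G16950 (RPP5). A cluster, the interval over which the deposited files count sRNA reads, was taken as a member if any base of it (at least 1) fell in the TAIR10 span of a locus or in the 1 kb on either side. By this rule 13 clusters of 17131 were members. Of these, 5 lay at MIR472 and the CC-type genes, 8 lay at the RPP5 cluster genes, and AT1G51480 had none.

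The study asked what changes in plants that keep an altered growth state after an RNAi construct against MSH1, a gene for an organelle genome stability protein, has segregated away. The memory group was 2 first-generation transgene-null plants with that altered growth, and the wild type group was 4 Col-0 plants from transformation events that carried no transgene. All were grown in parallel, and no treatment is stated. Each library came from a single plant, and the labels name rosette leaves while the study's methods describe whole plants at early bolting. Memory plants descend from transgenic parents and wild type plants do not, so descent and memory state cannot be told apart here.

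NLR proteins are intracellular receptors that detect pathogen effectors and start a strong defence response, and their amino-terminal CC or TIR domain divides them into classes. In plants their transcripts are held down in part by microRNAs. miR472 belongs to a group of microRNAs that pair with the conserved P-loop coding sequence of CC-type receptor genes, and cleavage by such a microRNA can recruit the RNA-dependent RNA polymerase RDR6, so that the target transcript itself becomes a source of secondary small interfering RNAs. The RPP5 cluster on chromosome 4 is a tandem array of TIR-type genes in which the members share long stretches of sequence, and it is a known source of small RNA.

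Both arms of miR472 are given first because the CC-type genes of the list were examined for pairing with it. Capitals mark the seed, bases 2 to 8 from the 5′ end, and the letters were read 5′ to 3′ on the minus strand of the TAIR10.1 genome at the RefSeq annotation of the mature arms.
ath-miR472-3p: uUUUUCCUacuccgcccauacc
ath-miR472-5p: aUGGUCGAaguaggcaaaauc
The 3p arm had 22 bases, at chr1:4182143-4182164, and the 5p arm had 21 bases, at chr1:4182266-4182286. The MIR472 gene, chr1:4182132-4182299, lay on the same strand as the CC-type gene AT1G12290 and inside a single annotated exon of it, upstream of its coding sequence.

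The best gapless site for miR472-3p was then sought along each gene, with 1 point for a mismatch, 0.5 for a G:U pair, these penalties doubled at miRNA positions 2 to 13, and a site called at a score of 4.5 or less. The sites of the 3 CC-type genes follow, read 5′ to 3′ on the gene's strand, with capitals for bases that form a Watson-Crick pair with miR472-3p.
AT5G43740 site: GGTATGGGgGGAGTAGGAAAAA
AT1G51480 site: GGTATGGGgGGAGTAGGAAAAA
AT1G15890 site: GGTATGGGgGGAGTAGGtAAAA
The first pair of sites carried the same letters, paired at 21 of 22 bases and scored 1. They lay at chr5:17566541-17566562 on the plus strand and chr1:19092853-19092874 on the minus strand. That of AT1G15890 (chr1:5461946-5461967, plus strand) paired at 20 bases and scored 3. All 3 sites were inside coding sequence. In RPP4, SNC1 and RPP5 the best match scored 11.5, 10 and 11.5 and paired at 12 bases, so none of the 3 had a site. A match of letters describes the sequence only and is not evidence of cleavage.

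The 6 libraries held 7966799 to 18134284 counts in clusters, and 3 counts corresponded to 0.202 to 0.489 CPM (counts per 1000000, scaled by trimmed mean of M values). Members took a small part of each library, from 0.0339% of counts in wild type replicate 1 to 0.0715% in memory replicate 2. Along the first principal component memory replicate 2 stood apart from the other libraries, and along the second wild type replicate 1 did. The scaling factors of these libraries were 0.77 and 0.82, the lowest of the 6, and the closing section gives the range of the member values with 1 library left out at a time.

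Within the list, small RNA was concentrated at 2 places. AT5G43740 gave 55.2% of the 33496 member counts and the cluster over MIR472 gave 29.4%, while the other 11 clusters together gave 15.4%. Per kb of cluster, the MIR472 cluster had a mean level of 495 CPM per kb over the 6 libraries, with a range of 232 to 1323. AT5G43740 came next at 76.6 CPM per kb (61.8 to 107), and these ranges did not overlap. With its weaker neighbour Cluster_412 included, the MIR472 locus had 57.8 CPM per kb (27.7 to 152), a range that overlapped that of AT5G43740. RPP5 (2.40), RPP4 (2.26), AT1G15890 (1.95) and SNC1 (1.72) were far lower, with overlapping ranges, so their order was not resolved. The plot of CPM per library shows this separation between 2 abundant loci and the sparse ones.

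**Figure D1:**
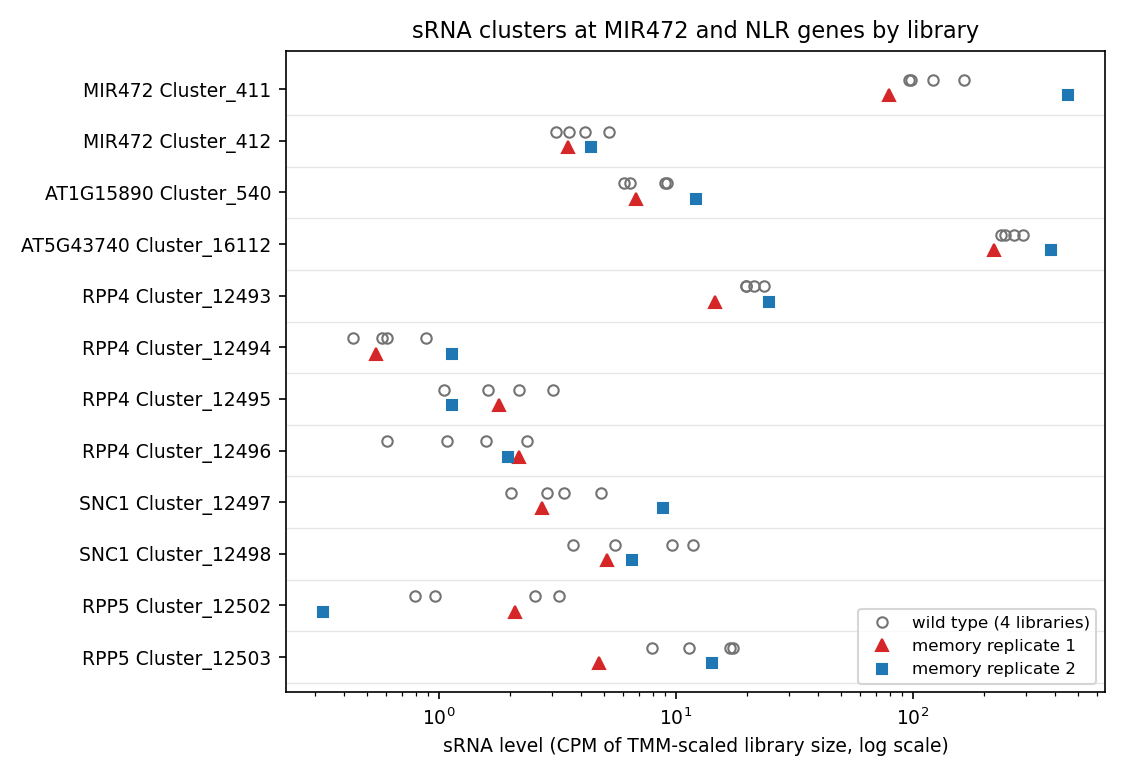
Level of 12 member clusters in each library, in CPM on a log axis, with open circles for the 4 wild type plants, a triangle for memory replicate 1 and a square for memory replicate 2. At MIR472 (Cluster_411) the memory values of 79.0 and 450 CPM lie on either side of all wild type values.

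In the memory and wild type comparison, no member passed an adjusted p of 0.05 in edgeR's quasi-likelihood test with Benjamini-Hochberg adjustment over the 15659 clusters tested, where 0.00639% of all clusters passed. Of the 12 members that passed the filter on low counts, 6 were higher and 6 lower in memory, with a median log2 fold change of 0.10 beside -0.03 for all clusters tested. At an unadjusted p below 0.05 there was 1 member, where 10.5% of all clusters passed. DESeq2 gave the same counts, 0 adjusted and 1 unadjusted. The groups separated without overlap at 1 of the 12, with memory above, where 22.1% of all clusters separated in either direction, 10.1% with memory above and 12.0% with memory below. A count of 1 in 12 was near the 10.1% of all clusters with memory above, and 12 members are too few to rank against all clusters. The median coefficient of variation among wild type plants was 30.2% at the members beside 25.5% over all clusters.

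**Figure D2:**
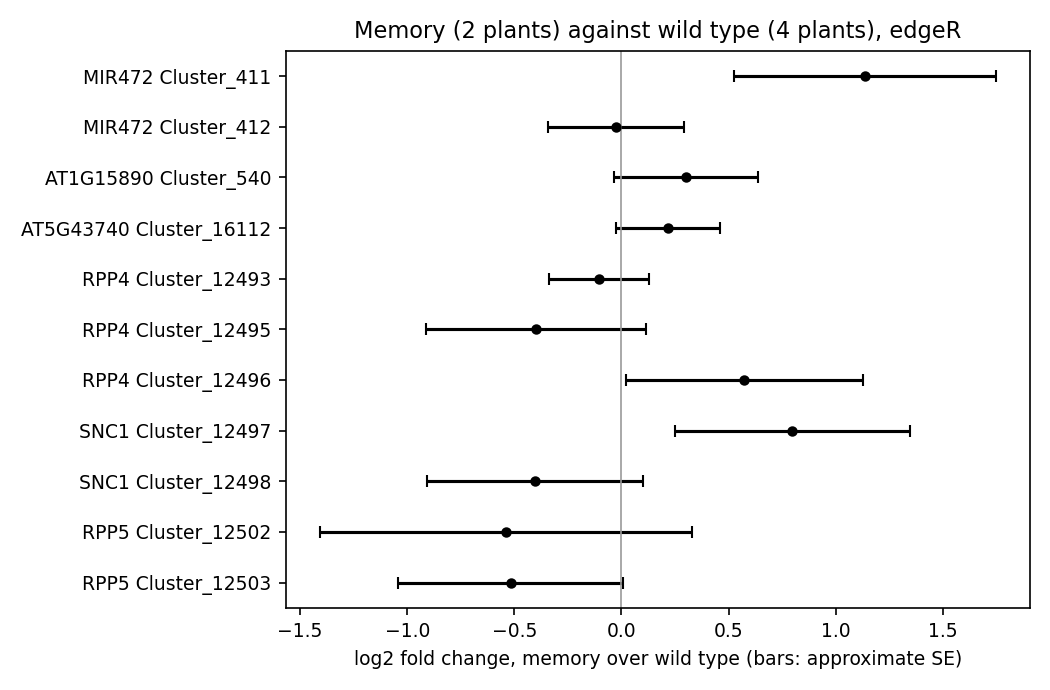
Log2 fold change of memory over wild type for 11 tested member clusters (edgeR), with bars of 1 standard error. The values run from -0.54 at RPP5 to 1.14 at MIR472.

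MIR472 is the source of miR472. Its cluster (Cluster_411, chr1:4182064-4182403) covered the whole gene and held 1437, 1363, 1889 and 1388 counts in wild type replicates 1 to 4 and 1014 and 2759 in memory replicates 1 and 2. In CPM these were 96.6, 98.1, 164 and 122 in wild type and 79.0 and 450 in memory. On this scale one memory plant was below every wild type plant and the other above every one. With library size as the sole scaling memory replicate 1 (83.8) was above wild type replicate 1 (79.2), while memory replicate 2 (346) stayed the highest. The 4 wild type plants averaged 120 ± 31.5 CPM and the 2 memory plants 265 ± 262 CPM (SD in both), a difference of 1.14 ± 0.61 in log2 units (SE). The edgeR adjusted p was 0.546, and leaving out memory replicate 2 turned the value to -0.61. The 5.69-fold gap between the memory plants compared with a median ratio of 0.979 for memory replicate 2 over memory replicate 1 across all clusters, and with library size as the sole scaling it was 4.13-fold. Among 238 tested clusters at annotated microRNA genes, 10 had a larger log2 fold change, and the cluster ranked 47th of 256 by level. A weaker cluster upstream of MIR472 (Cluster_412), which also overlapped the gene AT1G12300, averaged 4.01 ± 0.92 CPM over the 4 wild type plants and 3.95 ± 0.63 CPM over the 2 memory plants (SD).

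AT5G43740, which encodes a CC-type receptor and carries one of the best-paired sites, was the largest source of small RNA in the list. Its cluster (Cluster_16112, chr5:17565673-17569251) spanned 3579 bases, of which 2589 were coding sequence, and the miR472-3p site began 868 bases inside its 5′ edge. Its levels were 246, 235, 293 and 266 CPM in wild type and 221 and 383 CPM in memory. As at MIR472 on this scale, memory replicate 1 was the lowest library and memory replicate 2 the highest. With library size as the sole scaling neither held. The lowest was then wild type replicate 1 (201) and the highest wild type replicate 3 (332), with 235 and 295 in memory. The wild type mean was 260 ± 25.7 CPM (SD over 4 plants) and the memory mean 302 ± 115 CPM (SD over 2 plants). The log2 difference was 0.22 ± 0.24 (SE, edgeR adjusted p = 0.761). The sign turned with library size as the sole scaling (-0.06) and without memory replicate 2 (-0.24). Of the 24-base words of this cluster 79.0% were unique in the nuclear genome. Another 20.8% occurred more than once in NLR genes, a count that includes any repeats within AT5G43740 itself. Some reads could thus have come from a paralog.

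The balance between both abundant clusters needs no scaling, since each count is divided by another of the same library. AT5G43740 had 2.54, 2.39, 1.79 and 2.18 counts for each count at MIR472 in wild type replicates 1 to 4. The ratio was 2.80 in memory replicate 1 and 0.851 in memory replicate 2. The memory values lay on either side of the wild type range, so the plants of that group differed more from each other than the wild type plants did.

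AT1G51480 carried the same 22-base site as AT5G43740 but had no cluster within 1 kb. The nearest one (Cluster_2787) ended 3614 bases away. The same best-paired letters thus stood in the gene with most small RNA in the list and in the gene with none counted near it. How the deposited clusters were delimited is not given in the sources used here, so small RNA outside of them could not be counted.

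AT1G15890, a CC-type gene with a less well paired site, had a cluster (Cluster_540, chr1:5460013-5464266) with 9.01, 6.41, 9.21 and 6.07 CPM in wild type and 6.78 and 12.2 CPM in memory. One memory plant lay within the wild type range and the other above it. With library size as the sole scaling both memory values (7.19 and 9.41) lay within that range (6.53 to 10.4). The log2 difference of 0.30 ± 0.33 (SE) had an edgeR adjusted p of 0.760 and became -0.18 without memory replicate 2. MIR472 and AT5G43740 turned in the same way when that library was left out.

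The RPP5 cluster genes, known for resistance to the downy mildew pathogen (RPP4 and RPP5) and for the autoimmune gain-of-function allele of SNC1, had many weak clusters. The TAIR10 interval examined spanned 56290 bases with 20 annotated genes, 6 of them NLR genes, and held 11 clusters, 8 of them members. Of the 7 members tested there, 2 were higher and 5 lower in memory, with a median log2 fold change of -0.40. None had an unadjusted p below 0.05 in edgeR, where 10.5% of all clusters passed. None of the 8 separated the groups, where 22.1% of all clusters tested did in either direction.

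**Figure D3:**
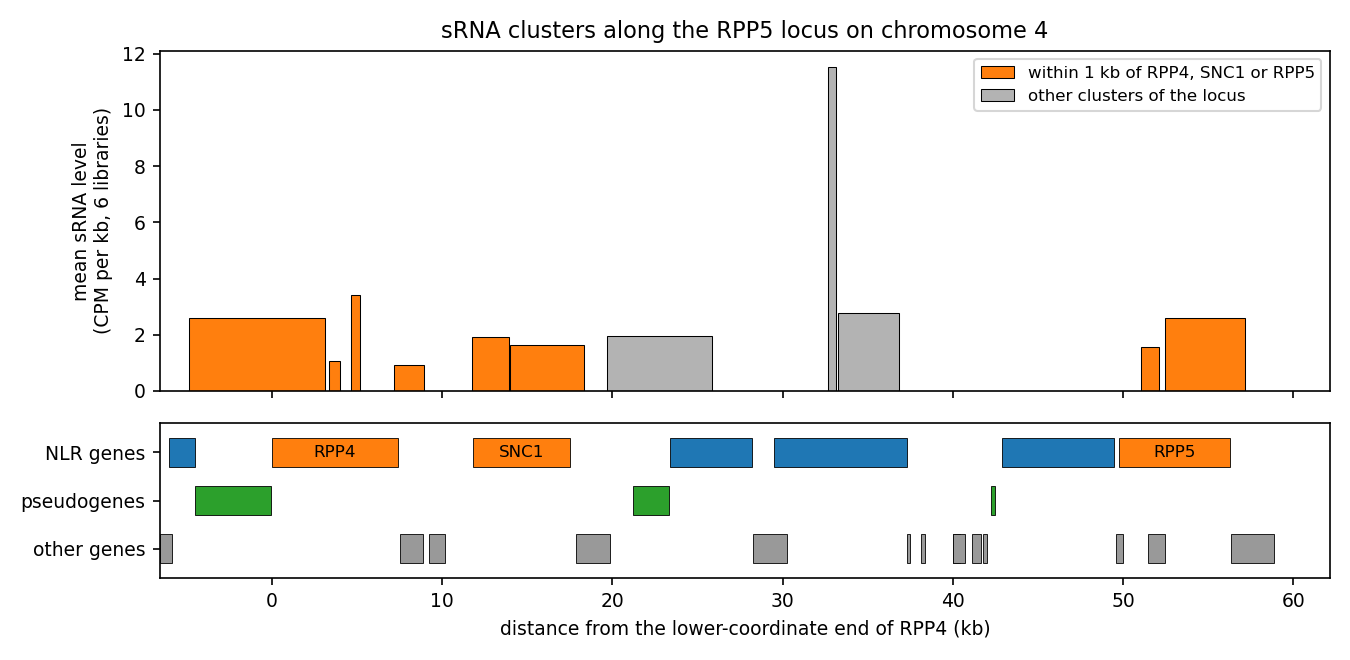
Small RNA clusters along the RPP5 cluster on chromosome 4, by distance in kb from the lower-coordinate end of RPP4, with bar height for the mean level over 6 libraries in CPM per kb, orange for members, grey for other clusters, and the genes beneath. Member clusters stay at or below 3.43 CPM per kb, and the highest level, 11.5 CPM per kb, belongs to a cluster at AT4G16920 that is not a member.

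RPP4 had 4 clusters. The largest (Cluster_12493, chr4:9483601-9491577) gave 293, 296, 271 and 224 counts in the wild type plants and 188 and 151 in the memory plants. Memory replicate 1 was the lowest of the 6 libraries after scaling and memory replicate 2 the highest. With library size as the sole scaling memory replicate 1 stayed the lowest (15.5), but wild type replicate 3 was the highest (26.7). More than the gene was covered, since 4865 of its 7977 bases lay downstream, over the pseudogene AT4G16870 among others. After scaling, wild type averaged 21.1 ± 1.82 CPM over 4 plants and memory 19.6 ± 7.05 CPM over 2 (SD). The log2 difference was -0.11 ± 0.23 (SE, edgeR adjusted p = 0.892), and 0.24 without memory replicate 1. A cluster within an intron (Cluster_12495) differed by -0.40 ± 0.51 in log2 units (SE), and the upstream one (Cluster_12496) by 0.57 ± 0.55, or 0.32 without wild type replicate 1. Cluster_12494 did not pass the count filter, with 5 to 10 counts per library. Summed over the locus, RPP4 had 24.02 CPM in memory for 25.05 in wild type, a ratio of 0.959.

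SNC1 was covered by 2 clusters whose log2 differences had opposite signs. Cluster_12497 (chr4:9500228-9502379) had 2.02, 3.38, 2.87 and 4.84 CPM in wild type and 2.73 and 8.81 CPM in memory. Cluster_12498 (chr4:9502459-9506803), which reached 831 bases upstream of the gene, had 11.8, 9.64, 5.56 and 3.69 CPM in wild type and 5.14 and 6.52 CPM in memory. Both memory values fell inside the wild type range at the second cluster, while at the first memory replicate 2 lay above it. The log2 differences were 0.80 ± 0.55 and -0.40 ± 0.50 (SE), with edgeR adjusted p of 0.610 and 0.791, the first was -0.26 without memory replicate 2, and the second was -0.12 without wild type replicate 1. Summed over the locus, wild type averaged 11.0 ± 2.89 CPM over 4 plants and memory 11.6 ± 5.28 CPM over 2 (SD), and with library size as the sole scaling the order turned, to 11.5 and 10.1.

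RPP5 had the lowest memory to wild type ratio of the 7 loci, 0.698, with 15.3 ± 3.62 CPM over 4 wild type plants and 10.7 ± 5.41 CPM over 2 memory plants (SD). Its main cluster (Cluster_12503, chr4:9540961-9545628) had 7.94, 16.9, 11.4 and 17.5 CPM in wild type and 4.75 and 14.2 CPM in memory. One memory plant was the lowest of all 6 and the other sat among the wild type plants. The log2 difference was -0.52 ± 0.53 (SE, edgeR adjusted p = 0.738), and it became 0.091 without memory replicate 1. The other cluster (Cluster_12502, chr4:9539505-9540574), all within coding sequence, gave 38, 11, 37 and 11 counts in the wild type plants and 27 and 2 in the memory plants. It differed by -0.54 ± 0.87 in log2 units (SE; 0.16 without memory replicate 2), and the wild type plants alone covered more than a 3-fold range of counts.

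Shared sequence limits how these clusters can be assigned. At RPP5, 27.8% and 39.3% of the 24-base words of both clusters were unique in the genome. Another 72.2% and 46.7% occurred more than once in NLR genes, a count that includes any repeats within RPP5 itself. At SNC1 the unique shares were 53.0% and 64.1%, and at RPP4 they ranged from 58.3% to 88.8%. At the MIR472 cluster the share was 100%. How reads with several equal positions were placed is not given in the sources used here, so values at RPP5 and SNC1 may include reads from their paralogs, and neither strand nor length of the reads is separated in the files.

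At several members the sign of the log2 difference turned without memory replicate 2, and at others it turned without memory replicate 1. After scaling by trimmed mean of M values, memory replicate 2 was the highest of the 6 libraries at 7 of the 13 members. This held at 24.5% of all clusters. With library size as the sole scaling memory replicate 2 was the highest at 3 members, and no share over all clusters was counted there. Memory replicate 1 was the lowest at 4 of 13, where this held at 14.2% of all clusters. The ratio of memory replicate 2 to memory replicate 1 was 1.80 at AT1G15890, 1.73 at AT5G43740 and 3.23 at the first SNC1 cluster. The ratio was below 1 at the smaller RPP5 cluster (0.155, resting on 2 counts) and at 2 RPP4 clusters, Cluster_12495 (0.637) and Cluster_12496 (0.897). What distinguishes both memory plants was not tested.

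By the pattern over the 6 libraries, the clusters nearest to MIR472 in Pearson correlation of log2(CPM + 1), among 14321 clusters, were Cluster_13824 at AT5G13890 (r = 0.994), Cluster_6946 (r = 0.993) and Cluster_12561 within 1 kb of AT4G18030 (r = 0.992). Cluster_6946 overlaps TAS2, a noncoding precursor of trans-acting small interfering RNAs made after cleavage by miR173, with TAS1C and AT2G39690 within 1 kb, and had 3145, 3397, 4926 and 3454 CPM in wild type and 2658 and 9452 CPM in memory. The order of libraries was the same as at MIR472 for the first 2 clusters (Spearman's rho of 1) and close to it for the third (0.943). Without memory replicate 2 and wild type replicate 3, the libraries farthest from the median, r was 0.970, 0.891 and 0.858 over 4 libraries. For AT5G43740 the nearest were Cluster_7081, Cluster_13672 and Cluster_12561, with r between 0.991 and 0.993. The clusters were picked by r over these same libraries, so high values of r and rho were built into the choice. All clusters of a library share its depth and scaling, and these values are given as a description.

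Among all annotated NLR genes, 97 of 154 had a cluster within 1 kb, with 146 clusters, 141 of them tested. In memory 71 were higher and 70 lower, the median log2 fold change was 0.00, and none passed an adjusted p of 0.05 in edgeR, with 9 higher and 5 lower of the 141 at an unadjusted p below 0.05, near the 10.5% of all clusters. By CPM per kb the MIR472 cluster ranked 1st of the 146 and AT5G43740 ranked 7th, while the other 11 members ranked from 67th to 112th. The highest cluster apart from MIR472 was at the TIR-type gene AT5G38850 (Cluster_15774), at 428 CPM per kb, with 20.02% of all NLR counts and a log2 difference of 0.23. Those with the largest changes at an unadjusted p below 0.05 were AT5G40910 (1.47 ± 0.57, SE), AT1G63860 (-1.06 ± 0.38), AT5G45230 (-0.84 ± 0.30), AT3G46710 (0.75 ± 0.28) and AT5G40100 (0.70 ± 0.23), with edgeR adjusted p from 0.452 to 0.457. The AT5G40910 cluster lay 164 bases outside the gene, over a pseudogene, with 4 to 15 counts per library. That of AT5G40100 lay 443 bases outside its gene, also over a pseudogene. The AT1G63860 cluster overlapped a small nucleolar RNA gene and held 3 counts in memory replicate 2. That of AT3G46710 had 209 of its 1547 bases in the gene.

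A miR472-3p site at a score of 4.5 or less was present in 18 of the 154 NLR genes, in 9 of 25 annotated as CC type, 1 of 104 annotated as TIR type and 8 of 25 with no class given. At a limit of 3 there were 8 genes, and at 6 there were 22. Of the 18 with a site, 13 had a cluster within 1 kb. The median level of the highest such cluster was 2.87 CPM per kb, with 2 above 10 CPM per kb. Of the 136 without a site, 84 had a cluster, with a median of 5.95 CPM per kb and 35 above 10. AT1G12290, whose best site scored 1.5, is among the 2 because the MIR472 cluster lies within it. AT5G43740 was then the one NLR gene with a site whose own cluster exceeded 10 CPM per kb, and a low pairing score was not accompanied by a high level at AT1G15890 or AT1G51480. Genes without a site were not restricted to their own clusters in this way. At AT1G72890 (150 CPM per kb) and AT5G35450 (97.5), for example, no cluster lay on the gene itself.

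**Figure D4:**
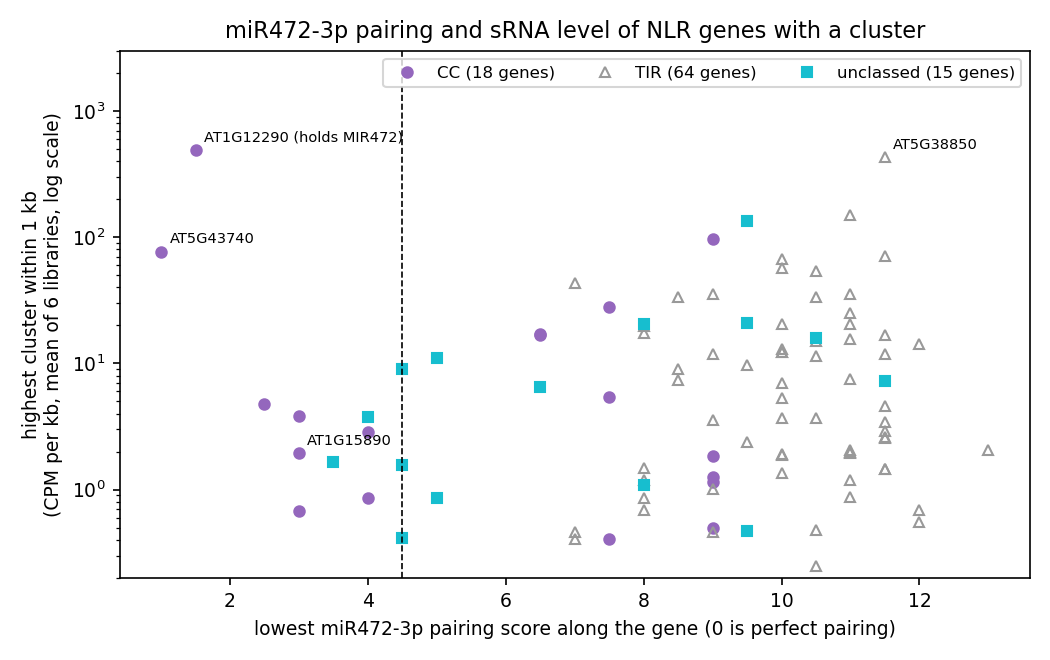
Lowest miR472-3p pairing score along each of the 97 NLR genes that had a cluster (0 is perfect pairing, dashed line at the limit of 4.5) against the level of the highest cluster within 1 kb (CPM per kb, log axis, mean of 6 libraries). AT1G12290 and AT5G43740 are high among genes with a site, and genes with no site reach 428 CPM per kb.

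Genes that act around these receptors were read from 2 lists. Of 11 genes of the microRNA and secondary small RNA machinery, 6 had clusters, and of the 11 clusters tested 8 were higher and 3 lower in memory. A single one had an unadjusted p below 0.05, a share close to the 10.5% of all clusters, and lay at AGO2, an Argonaute with a role in antiviral and antibacterial defence, with 880, 652, 1066 and 983 counts in the wild type plants and 445 and 276 in the memory plants. After scaling both memory plants were below all wild type plants there, as at 12.0% of all clusters. The gap was narrow, with 45.0 CPM in memory replicate 2 beside 46.9 CPM in wild type replicate 2. The log2 difference was -0.84 ± 0.32 (SE, edgeR adjusted p = 0.457). Of 19 genes of NLR signalling, 13 had clusters, and of 19 clusters tested 10 were higher and 9 lower, none with an unadjusted p below 0.05.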

How the data were processed

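Small RNA of 6 single plants was sequenced. According to the methods, the authors aligned each library to TAIR10 with ShortStack and merged the alignments with SAMtools. The deposited files hold raw counts per cluster and library, and how clusters were delimited or reads counted is not given in the sources used here. One locus of the list is counted in the totals and is not reported here. The 8 loci and the gene lists were chosen with earlier results of these data known. Clusters were matched to RefSeq TAIR10.1 genes within 1 kb, and IDs were used as given. Counts were fitted with edgeR 4.0.16 in R 4.3.3 (filterByExpr, trimmed mean of M values, quasi-likelihood test, all 6 libraries, no covariate), with Benjamini-Hochberg adjustment over 15659 clusters. CPM values and SDs are from the same scaling, and an approximate SE of each log2 difference was derived from its F value (size over root F). Groups were the 4 wild type and 2 memory plants of the labels, whose p-values measure the spread between these plants. Replicate numbers name different plants and were not used to pair the samples in the main fit. Alternatives were DESeq2 1.42.0, other scalings, filters and tests, a replicate block, and leaving out each library. Beyond the members, clusters were named by fixed rules: up to 5 NLR clusters with the largest change at an unadjusted p below 0.05, the 3 with the highest CPM per kb, and the 3 most like each abundant member with a mean of at least 1 CPM. The fit was tested on simulated counts, which had the same dispersion at all clusters and no library that stood apart. Intervals and the floor of 3 counts cover counting error only.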

Additional observations from a re-analysis of the deposited data

How the results depend on the processing

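No member cluster passed an adjusted p of 0.05 under any alternative run, the lowest adjusted p being 0.129. Of 201 alternative values for single member clusters, 191 kept their direction and 10 reversed. The number of all clusters that passed, 1 in edgeR's quasi-likelihood fit, was 8 with library size alone, 2 with at least 10 counts in every library, 265 in DESeq2, 137 in the likelihood ratio test and 0 to 9 when 1 library was left out (9 without wild type replicate 1, 5 without memory replicate 1). With the replicate numbers as a block over 4 libraries it was 0, as without the block in the same 4. The deviations of memory replicate 1 and wild type replicate 1 from the means of replicates 1 and 2 had a correlation of -0.065. This single contrast cannot settle whether the numbers pair plants. At an unadjusted p below 0.05 in edgeR, the 1 member of the main setting became 0 with library size alone (1018 of all 15659 clusters passed) and in the likelihood ratio test (1294). It was 0 with the replicate block in the 4 libraries (537 of all 14986 clusters) and without it (712). It was also 0 with each wild type library left out in turn, where 1119 to 1859 of all clusters passed, beside 1641 in the main setting. Without 1 memory plant that group rested on a single library, and no count is given.

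With library size as the sole scaling, all clusters tested had a median of -0.23 in place of -0.03 (log2). It gave log2 ratios of memory to wild type of 0.71 at MIR472, -0.06 at AT5G43740, -0.34 at RPP4 and -0.19 at SNC1, and the sign turned at AT5G43740 and SNC1. Without the 10 largest clusters in the library sizes the locus ratios were 0.037 at AT5G43740, -0.23 at RPP4 and -0.088 at SNC1, beside 0.082 at SNC1 in the main setting. The edgeR fit without those clusters in the library sizes still applied the trimmed mean of M values. It gave 0.21 at AT5G43740, beside 0.22 in the main fit, so the locus ratios are on another scale than that fit.

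Leaving out 1 library at a time reversed 8 member clusters, whose log2 values ranged as follows. The MIR472 cluster ran from -0.61 to 1.91 and Cluster_412 beside it from -0.20 to 0.14. AT1G15890 ran from -0.18 to 0.68 and AT5G43740 from -0.24 to 0.57. At RPP4 Cluster_12493 ran from -0.53 to 0.24, and at SNC1 Cluster_12497 from -0.26 to 1.44. At RPP5 Cluster_12502 ran from -2.48 to 0.16 and Cluster_12503 from -1.50 to 0.091. Every end of these ranges was a value without 1 of the memory plants, and the group then rested on a single library assumed to vary like the others. Members that kept their sign ranged from -0.77 to -0.11 (Cluster_12495, RPP4), 0.32 to 0.93 (Cluster_12496, RPP4) and -0.63 to -0.12 (Cluster_12498, SNC1). Library depth limits the sparse members, some with under 10 counts in a library.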
